A study of Mus musculus with 22 samples.

Results

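Fam135b, Scn7a, Moxd1, Cntn3, Clstn2, Cntnap4, Colec12 and Kirrel3 are 8 of the 22623 genes in the RNA-Seq tables and of the 23081 genes in the Ribo-Seq tables of a study of the RNA-binding proteins Msi1 and Msi2 in mouse cortical neural stem cells (NSCs). They were selected on lower mRNA (RPKM and counts) with doxycycline (Dox) in tetO-Msi1 cells at both embryonic stages, so their values in that contrast, fitted or not, only describe them and support nothing. RNA-Seq was made from 14 libraries and ribosome profiling (Ribo-Seq, sequencing of the RNA fragments that ribosomes protect) from 8. Cells of the tetO-Msi1 or tetO-Msi2 line carry a Dox-inducible cDNA at the Col1a1 locus together with the m2rtTA transactivator at Rosa26, and KH2 cells carry m2rtTA alone, so Dox in KH2 cells serves as the control for the drug. Dox was given at 1 µg/ml for 72 h. C1 and C4 cells are floxed for both Msi1 and Msi2. C4 cells also carry CreER, which 4-hydroxytamoxifen (4-OHT, 48 h) activates, whereas C1 cells lack it. All NSCs came from the cortex of E12.5 or E13.5 embryos and were grown in N2 medium with EGF and bFGF. KH2, tetO-Msi2, C1 and C4 cells were compared with and without treatment at E12.5, tetO-Msi1 cells at E12.5 and E13.5, and KH2 cells at E13.5 without Dox only. Each condition had 1 library, except that untreated tetO-Msi1 cells at E13.5 were sequenced as 2 technical replicates. KH2 cells with Dox at E13.5 were not analysed here.

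Musashi proteins bind short UAG-containing motifs in the 3′ untranslated regions (UTRs) of mRNAs and can alter their translation and stability, and in the developing brain they are known as markers of neural stem and progenitor cells. Most of the 8 genes encode proteins of the cell surface. Cntn3 is a GPI-anchored immunoglobulin-domain contactin, Cntnap4 (Caspr4) belongs to the neurexin superfamily, Clstn2 (calsyntenin-2) is a cadherin-family protein of synapses, and Kirrel3 (Neph2) is an immunoglobulin-domain adhesion molecule. Scn7a encodes Nax, an atypical sodium channel, and Colec12 a scavenger receptor of the collectin family. Moxd1 encodes a copper monooxygenase related to dopamine beta-hydroxylase. Fam135b is given without a role.

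The 3′ UTRs were searched for the pentamer GTAGT, and for the related pentamer with a different first base, ATAGT (T stands for the U of the mRNA), because the study names such motifs for Msi1. The search used the sense strand of each gene's longest 3′ UTR in the Ensembl annotation of NCBIM37 (mm9), and matches that share bases were counted separately. A pentamer was found in 6 of the 8 genes, against 59.4% of 19381 genes with a 3′ UTR of at least 50 nt. Scn7a held 4 in 2073 nt, Cntn3 held 2 in 2012 nt, and Clstn2, Cntnap4, Colec12 and Kirrel3 held 1 each. Fam135b, with a 3′ UTR of 222 nt, and Moxd1, with 1161 nt, held none. The median density of the 8 genes was 0.889 per kb, beside 0.82 per kb over all genes, and 4 of the 8 lay above that median. One site is shown for each of the 5 genes below as the sequence context of the motif, written 5′ to 3′ on the strand of the gene with the pentamer in capitals.
Scn7a, chr2:66512854-66512883, minus strand: tctttagttttggATAGTagatgacattgt
Cntn3, chr6:102114957-102114986, minus strand: tgtatggagacacATAGTacatacacggta
Clstn2, chr9:97353813-97353842, minus strand: catcatttcagatGTAGTcgaacaaatgta
Cntnap4, chr8:115406304-115406333, plus strand: attcaatacatcaATAGTctgaaaaattgt
Kirrel3, chr9:34843061-34843090, plus strand: tgcagctgagcggATAGTgctcagggcctc
A match of these letters is a description of the sequence, and binding at these positions was not measured. Among the 6 genes with a pentamer the densities ran from 0.698 per kb in Kirrel3, above 47.2% of all genes, to 1.93 per kb in Scn7a, above 75.8%.

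The 8 genes lie on chromosomes 2, 6, 8, 9, 10, 15 and 18 and are long. Clstn2 spans 588.8 kb (chr9:97344814-97933600) and Kirrel3, on the same chromosome, 550.6 kb (chr9:34293711-34844301). Cntnap4 spans 312.7 kb (chr8:115093943-115406617), Cntn3 301.4 kb (chr6:102113300-102414661) and Fam135b 282.2 kb (chr15:71276108-71558268). Scn7a (chr2:66511482-66622971) spans 111.5 kb and Moxd1 (chr10:23943323-24022596) 79.3 kb, the shortest of the 8.

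The RNA-Seq libraries held between 7889966 counted reads (tetO-Msi1 with Dox, E12.5) and 58435172 (C4 with 4-OHT). The Ribo-Seq totals lay between 657288 and 6381242, the lowest again for tetO-Msi1 with Dox. Each change is a log2 ratio of the deposited RPKM (reads scaled by the length of the gene model and by the size of the library) with a 95% interval from the read counts, which covers counting error only and not the spread between cultures. The deposited RPKM of the libraries are on different scales, with a median shift of 1.07 on the log2 scale between untreated KH2 cells at E13.5 and at E12.5. Levels compared across conditions are therefore RPKM after TMM scaling, a normalisation of library size over all genes, and within a treatment pair the median of all genes moved by 0.08 or less. Kirrel3 mRNA was counted over a model of only 220 nt, 10.9% of the 2027 nt used for its footprints. Of the NSC markers, Fabp7 lay at 5130 to 9650 scaled RPKM over the conditions, Vim at 4550 to 7460 and Sox2 at 530 to 1420. Nes lay at 127 to 487, Sox9 at 192 to 325, Notch1 at 69.6 to 272 and Hes1 at 57.7 to 120. Hes5 ran from 21.7 to 825. Of the genes also used as markers of oligodendrocyte precursors, Olig1 was as high as Sox2, at 1010 to 2330. Of those used for astrocytes, Slc1a3, a glutamate transporter, was as high, at 910 to 1550. The others of these 2 lists were lower than Olig1 and Slc1a3, with medians over the 13 conditions from 21.1 for Gpr17 to 570 for Olig2. The median of Nes was 289. The medians of Olig1 and Slc1a3 were 1370 and 1290. The 5 endothelial markers stayed at 0.825 or less and the 4 microglial markers at 0.352 or less in all 13 conditions.

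The induced and deleted genes were read first. In tetO-Msi1 cells Msi1 mRNA went from 1434 reads without Dox to 3037 with it at E12.5 in the shallower treated library, a 5.48-fold higher RPKM, and was 4.11-fold higher at E13.5. Msi2 mRNA was lower in the same cells, by -0.67 (-0.97 to -0.38) at E12.5 and -1.13 (-1.28 to -0.97) at E13.5 on the log2 scale. Msi2 footprints changed there by 0.37 (-0.20 to 0.91) at E12.5. In tetO-Msi2 cells Msi2 mRNA was 5.52-fold higher with Dox, and Msi1 mRNA changed by 0.25 (0.08 to 0.42). In KH2 cells with Dox the log2 changes were -0.05 for Msi1 and 0.08 for Msi2, with intervals that hold 0. In C4 cells with 4-OHT Msi2 was 8.71-fold lower, from 630 to 87 reads, but Msi1 mRNA had 712 reads without and 853 with 4-OHT, a log2 change of -0.01. Msi1 footprints were 56 and 20 in the same cells. Whether the counted Msi1 exons lie in the deleted part was not tested, so the 4-OHT results below are those of the library labelled C4 with 4-OHT. Before any treatment Msi1 was already at 29.5 scaled RPKM in C4 cells, beside 81.9 in C1 cells.

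With Dox in tetO-Msi1 cells, the contrast that chose them, Scn7a and Kirrel3 showed the largest decreases at E12.5 and Fam135b, Moxd1, Cntn3 and Colec12 those at E13.5. Scn7a had 58 reads without and 3 with Dox at E12.5, a log2 change of -2.90 (-5.22 to -1.28). Kirrel3 had 93 and 5 reads, a log2 change of -2.85 (-4.50 to -1.57). Both rest on 5 or fewer reads in the shallowest RNA-Seq library. Cntnap4 is better counted, with 673 and 139 reads and a log2 change of -0.90 (-1.18 to -0.64). Clstn2 had 67 and 7 reads (-1.89, interval -3.26 to -0.77), and Cntn3 had 51 and 8 (-1.30, interval -2.59 to -0.22). For the remaining genes the intervals at E12.5 hold 0. Moxd1 changed by -0.28 (129 and 41 reads), Fam135b by -1.06 (27 and 5 reads) and Colec12 by -0.95 (25 and 5 reads). The counting interval lay below 0 for 5 of the 8 at E12.5, beside 19.6% of all genes with at least 10 reads. Nothing is read from this difference because the contrast chose the genes.

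At E13.5 the counts were larger and all 8 intervals lay below 0, beside 24.4% of all genes. Moxd1 had 1525 and 3395 reads in the technical replicates without Dox and 1082 with Dox, a log2 change of -1.83 (-1.92 to -1.73). Fam135b had 31 and 75 reads without Dox and 18 with it (-2.18, interval -2.99 to -1.45). The other changes at E13.5 ran from -1.80 for Cntn3 and -1.79 for Colec12 to -0.42 for Kirrel3. The 2 stages placed Kirrel3, Moxd1 and Cntnap4 differently, as a description of the values that chose them. Kirrel3 was 7.19-fold lower at E12.5 and 1.33-fold lower at E13.5, while Moxd1 was 1.22-fold and 3.54-fold lower. Cntnap4 was 1.87-fold and 3-fold lower. The E12.5 interval of Kirrel3 (-4.50 to -1.57) and that at E13.5 (-0.70 to -0.14) do not overlap, nor do those of Moxd1. Those of Cntnap4 (-1.18 to -0.64 and -1.91 to -1.27) do not overlap either. The share of all genes with such intervals was not counted, so nothing is read from how many members had them. Stage cannot be told apart from a batch, which the labels do not name. In an edgeR fit of both stages the 8 genes had log2 changes from -1.95 (Fam135b) to -1.11 (Kirrel3), and all 8 were among the 1.82% of 11938 genes called lower, from which nothing is read because the contrast chose the genes. Ordered by this change among the genes called, Fam135b, Scn7a, Colec12, Cntn3 and Clstn2 took places 1 to 5, Moxd1 place 11, Cntnap4 place 17 and Kirrel3 place 30. Syt10 (-1.53), Dsc2 (-1.50) and Snap25 (-1.49) stood between them without being members. Snap25, a neuronal marker, went from 38 to 6 reads at E12.5 and from 212 to 60 at E13.5, while the median of the 7 measured neuronal markers was 0.04 and 0.10. Their part in the changes was not tested. Lower mRNA from fewer cells of a type and less RNA per cell cannot be told apart in such bulk samples.

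**Figure D1:**
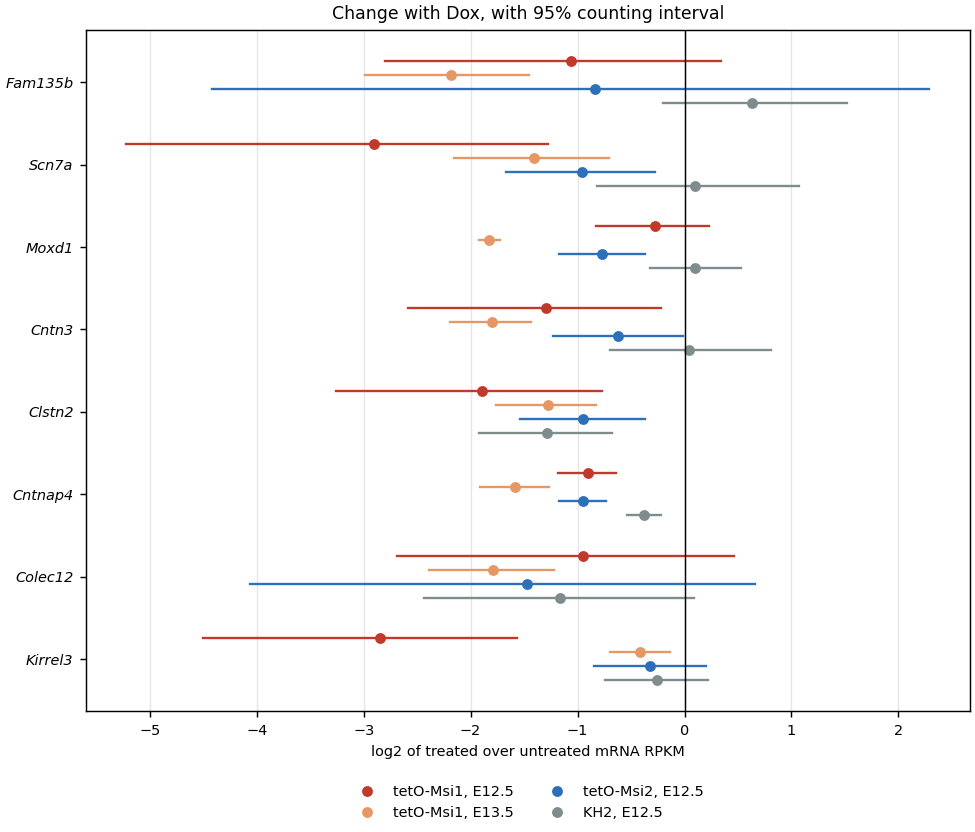
Log2 of treated over untreated mRNA RPKM (x axis) of each of the 8 genes with Dox in tetO-Msi1 cells at E12.5 and E13.5, tetO-Msi2 cells and KH2 cells. Points are single pairs of libraries and lines are 95% counting intervals. All tetO-Msi2 points lie left of 0, from -0.32 to -1.47, and the KH2 points fall on both sides, from -1.29 to 0.63.

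In tetO-Msi2 cells, which the choice did not use, all 8 genes had a lower RPKM with Dox, with a median log2 change of -0.90 beside 0.03 for all genes. The interval lay below 0 for 5 of the 8, against 16.1% of genes with at least 10 reads. Cntnap4 had 457 reads without and 282 with Dox, a log2 change of -0.95 (-1.17 to -0.73). Moxd1 had 130 and 91 reads and changed by -0.77 (-1.17 to -0.37). Both values exclude 0 by counting error alone. Scn7a (49 and 30 reads) changed by -0.96 (-1.67 to -0.28) and Clstn2 (68 and 42 reads) by -0.95 (-1.54 to -0.37). For Cntn3, with 54 and 42 reads, the interval of -1.23 to -0.01 only just excludes 0. Kirrel3 had 65 and 62 reads and a change of -0.32 (-0.85 to 0.20). Fam135b, at 3 and 2 reads, and Colec12, at 7 and 3 reads, were too rare in these cells for a direction to be detectable.

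KH2 cells with Dox gave no common direction, with 4 of the 8 lower, 4 higher and a median of -0.11 beside -0.04 for all genes. Clstn2 had 56 reads without and 40 with Dox in the deeper treated library, a log2 change of -1.29 (-1.92 to -0.68). Cntnap4 had 569 and 765 reads, a change of -0.38 (-0.54 to -0.22). These were the 2 genes of the 8 with an interval below 0, against 19.1% of all genes. Colec12 (14 and 11 reads) changed by -1.16 (-2.44 to 0.09). The changes of Scn7a, Moxd1 and Cntn3 lay between 0.04 and 0.10, with 16 and 30, 72 and 135, and 25 and 45 reads. Fam135b (17 and 46 reads) was at 0.63 and Kirrel3 (63 and 92 reads) at -0.26, both with intervals that hold 0. Clstn2 and Cntnap4 were lower with Dox also in this line without a Musashi transgene, by counting error only and on 1 library per condition. A count of 2 of the 8 is near the share of all genes, so nothing is read from it.

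The change of one line less that of KH2 cells sets the lines side by side. For tetO-Msi1 cells it contains the change that chose the genes, which favours values below 0, so these differences are a description only. In tetO-Msi1 cells the interval of this difference lay below 0 for Scn7a (-3.0), Kirrel3 (-2.58), Fam135b (-1.69), Cntn3 (-1.34) and Cntnap4 (-0.52). It held 0 for Clstn2, at -0.59 (-1.86 to 0.67), for Moxd1, at -0.38 (-1.04 to 0.27), and for Colec12, at 0.20 (-1.59 to 2.0). In tetO-Msi2 cells the difference from KH2 cells lay below 0 for Moxd1, at -0.87 (-1.43 to -0.30), and for Cntnap4, at -0.57 (-0.83 to -0.30). Clstn2 came to 0.35 (-0.46 to 1.15). With the same limit, and on 3 and 5 reads in the treated tetO-Msi1 library, the change in tetO-Msi1 less that in tetO-Msi2 cells was -1.94 (-3.74 to -0.14) for Scn7a and -2.53 (-3.92 to -1.13) for Kirrel3. For Cntnap4 the lines differed by 0.04 (-0.30 to 0.38). Each of these values rests on 1 library per condition and the KH2 and tetO-Msi1 libraries are shared between them. The share of all genes with such intervals below 0 was not counted, so nothing is read from how many members had one.

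Compared with KH2 cells that also received Dox, tetO-Msi1 cells with Dox at E12.5 had lower values for 7 of the 8 genes. Kirrel3 differed by -2.75 (-4.41 to -1.48), Scn7a by -1.87 (-4.23 to -0.19), Fam135b by -1.75 (-3.44 to -0.43) and Cntnap4 by -1.01 (-1.28 to -0.75). The intervals of Cntn3 (-1.04), Clstn2 (-1.07), Moxd1 (-0.27) and Colec12 (0.31) hold 0. The treated tetO-Msi1 library is one that chose the genes, and the share of all genes was not counted here, so nothing is read from these counts.

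Dox was also tested across KH2 and tetO-Msi2 cells together with edgeR's quasi-likelihood test, with the line as a block and Benjamini-Hochberg adjustment. Clstn2 and Cntnap4 fell in both lines, and they were 2 of the 7 genes tested, beside 0.450% of 11786 genes called lower (0.365% were called higher). Clstn2 changed by -1.11 (SE 0.295, adjusted p = 0.02747) and Cntnap4 by -0.64 (SE 0.137, adjusted p = 1.227e-03). The other 5 had estimates from -0.52 for Scn7a to 0.47 for Fam135b, with adjusted p from 0.7581 to 0.9162 in the same edgeR test, and Colec12 was too low to be tested. The calls, but not the direction, depended on the setting. With the RLE factors in edgeR the log2 change was -1.11 for Clstn2 (adjusted p = 0.1624) and -0.64 for Cntnap4 (adjusted p = 0.1097). DESeq2, at -1.12 and -0.65, and edgeR without the block, at -1.10 and -0.58, called none of the 8. Without the filter on low counts both stayed called in edgeR (adjusted p = 0.02069 and 1.806e-03). The prior degrees of freedom of the main fit were infinite. The variance of each gene thus came from the fit over all genes and not from its own spread between the lines. The labels do not say that libraries came from separate cultures, so the p-values do not measure the spread between cultures either. Nothing in this test separates Dox itself from Msi2, since 1 of the lines is induced for Msi2.

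Genes related to the 8 were counted from lists drawn up with earlier results known. Of 55 relatives (other contactins, contactin-associated proteins, calsyntenins, nephrin-like molecules, sodium channel subunits, copper monooxygenases, Fam135a, collectins and scavenger receptors, and binding partners of the adhesion molecules), 24 could be tested for Dox in tetO-Msi1 cells. Of these 24, 0 were called higher, beside 1.78% of all genes, and 2 lower, beside 1.82%. They were the contactin Cntn1, at -0.74 (SE 0.155, edgeR adjusted p = 2.992e-04), and the scavenger receptor Scarb1, at -0.57 (SE 0.154, edgeR adjusted p = 0.01025). The same 2 of 24 were called lower across KH2 and tetO-Msi2 cells, Cntn1 at -0.51 (SE 0.103, edgeR adjusted p = 4.315e-04) and Scarb1 at -0.35 (SE 0.098, edgeR adjusted p = 0.04421). None of the 9 measured binding partners (neurexins, neuroligins and others) reached 2-fold in any of the 6 treatment pairs. Of all genes with at least 10 reads, from 1.66% in KH2 to 3.42% in C4 cells were at least 2-fold lower in these pairs. A count of 0 of 9 is near such shares, so nothing is read from it. By single pairs at E13.5 in tetO-Msi1 cells, Cntn4 went from 57 to 13 reads, a log2 change of -1.82.

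The count of the 8 genes past 2-fold depended on the rule for low values. On log2(RPKM + 0.5) with a mean RPKM of at least 1, only 2 of the 8 could be read in the tet-inducible pairs at E12.5. Kirrel3 was the 1 past 2-fold in tetO-Msi1 cells at E12.5, beside 0.187% of genes, and Moxd1 the 1 at E13.5, beside 0.374%. The count was 0 in KH2 (0.0295% of genes lower) and tetO-Msi2 cells (0.119%), and 0 of 4 in C1 (0.0822%) and C4 cells (0.460%). With at least 10 reads in both libraries together and no pseudocount, 5 were lower in tetO-Msi1 cells at E12.5 (3.31% of genes) and 7 at E13.5 (3.29%), 2 in KH2 (Clstn2 and Colec12, 1.66%), 1 in tetO-Msi2 (Colec12, 1.90%), 0 in C1 (2.78%) and 1 in C4 cells (Colec12, 3.42%). After rescaling by the median ratio the counts were the same, beside 3.26%, 3.83%, 1.49%, 2.03%, 2.77% and 3.81% of genes in the same order.

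**Figure D2:**
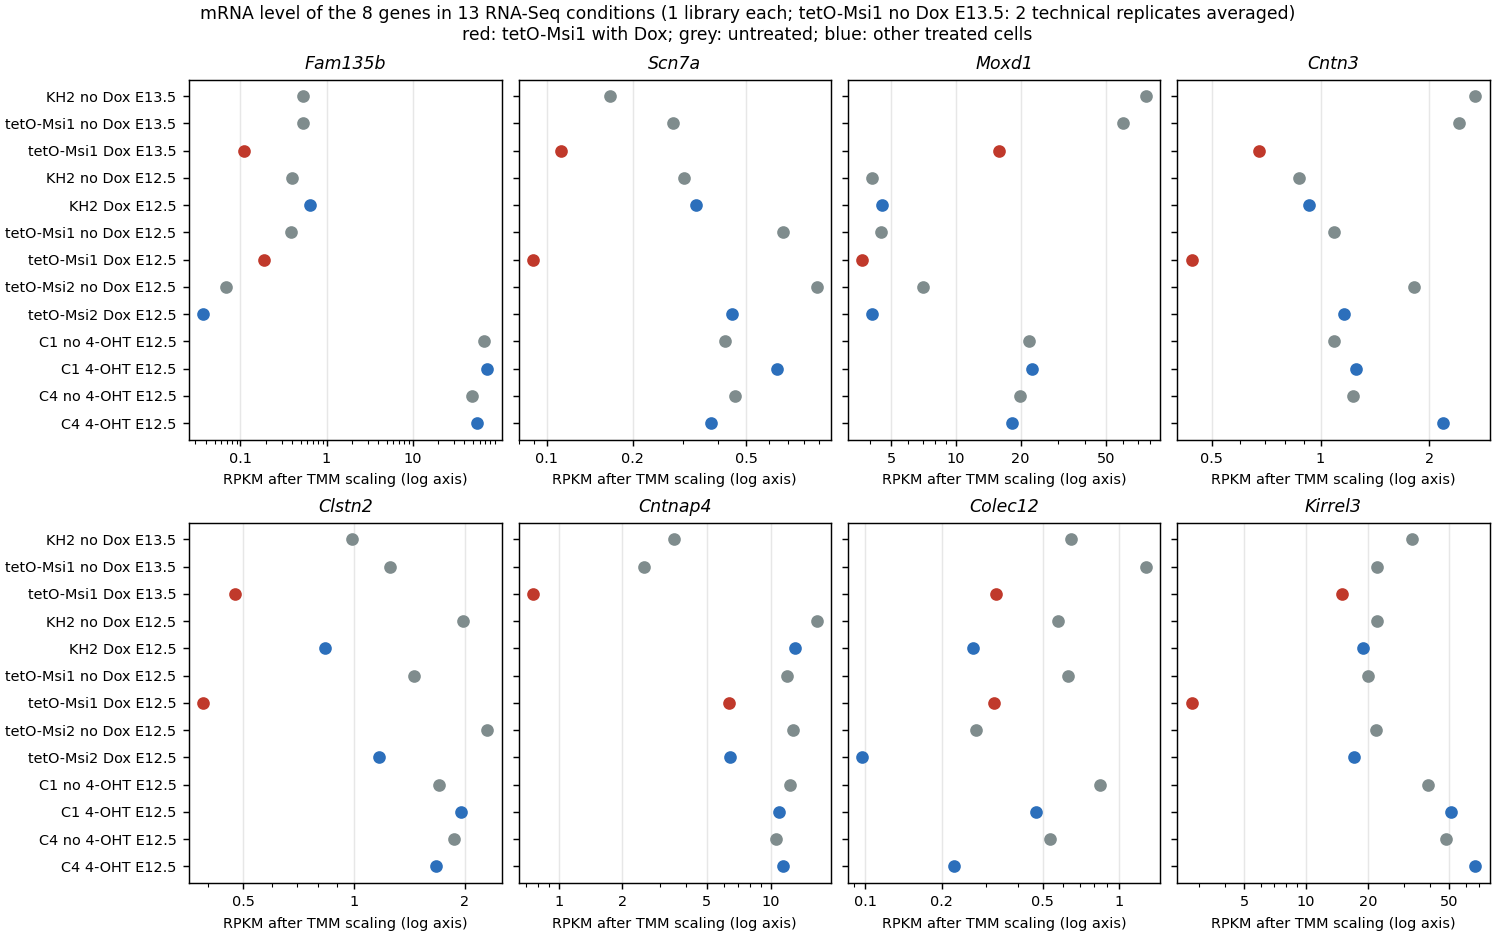
mRNA level of each of the 8 genes in the 13 RNA-Seq conditions, as RPKM after TMM scaling on a log axis, with a separate range for each gene. Every point is 1 library, apart from the average of 2 technical replicates in untreated tetO-Msi1 cells at E13.5. A tetO-Msi1 library with Dox (red) is the lowest of the 13 for Scn7a, Moxd1, Cntn3, Clstn2, Cntnap4 and Kirrel3, and a tetO-Msi2 library with Dox for Fam135b and Colec12. The red libraries were used to choose the genes, so their low place was favoured by the choice.

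Kirrel3, Moxd1 and Cntnap4 were the best expressed of the 8, with medians over the 13 conditions of 22.1, 15.8 and 10.9 scaled RPKM. The medians of Clstn2 (1.45), Cntn3 (1.16), Fam135b (0.536), Colec12 (0.473) and Scn7a (0.376) were all below 2. Scn7a had its lowest level, 0.0892, in tetO-Msi1 cells with Dox at E12.5 and its highest, 0.885, in untreated tetO-Msi2 cells, a 9.92-fold range. Its untreated levels at E12.5 ran from 0.302 in KH2 cells through 0.422 in C1 and 0.456 in C4 to 0.672 in tetO-Msi1 and 0.885 in tetO-Msi2 cells. Cntn3 and Clstn2 had the narrowest ranges, 6.08-fold and 5.90-fold. The lowest levels of Scn7a, Clstn2 and Cntn3, in tetO-Msi1 cells with Dox at E12.5, rest on 3, 7 and 8 reads. That library was used to choose the genes, so these ranges only describe them. Cntn3 was highest in untreated E13.5 cells, at 2.68 in KH2 and 2.41 in tetO-Msi1 cells, and lowest at 0.440 in tetO-Msi1 cells with Dox at E12.5. Clstn2 was highest in untreated tetO-Msi2 cells, at 2.30, followed closely by KH2 (1.98) and treated C1 cells (1.95), which its 56 to 215 reads in these libraries do not separate clearly. Colec12 was highest in untreated tetO-Msi1 cells at E13.5, at 1.28, and ran down to 0.0971 in tetO-Msi2 cells with Dox, where it had 3 reads.

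Fam135b divided the lines. It had 12559 and 12230 reads in C1 cells without and with 4-OHT, 7303 and 10373 in C4 cells, and between 2 and 75 in each library of the KH2, tetO-Msi1 and tetO-Msi2 lines. After scaling its level was 66.8 and 73.9 in C1 cells and 48.9 and 55.4 in C4 cells, and at most 0.639 elsewhere. The floxed and tet-inducible lines do not overlap. Within the tet-inducible lines the lowest levels were those of tetO-Msi2 cells, at 0.0677 and 0.0372, and the highest that of KH2 cells with Dox.

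In an edgeR test of untreated C1 and C4 cells against untreated KH2 and tetO-Msi2 cells, 3 of the 8 genes were higher in the floxed lines and none lower, beside 29.8% of 12068 genes called higher and 29.7% lower. Fam135b was higher by 7.95 on the log2 scale (SE 0.552, edgeR adjusted p = 4.758e-04). Moxd1 was higher by 1.89 (SE 0.272, edgeR adjusted p = 3.268e-03), with scaled levels of 21.8 and 19.8 against 4.08 and 7.04. Kirrel3 was higher by 0.98 (SE 0.226, edgeR adjusted p = 0.0152), at 39.1 and 48.1 against 22.1 and 21.8. Without the C4 library Kirrel3 came to 0.85 with an edgeR adjusted p of 0.1255. Scn7a, called at -1.06 without the KH2 library (edgeR adjusted p = 0.04095), and Cntnap4, called at -0.58 without the tetO-Msi2 library (edgeR adjusted p = 0.02898), did not pass with all 4 libraries, at -0.45 and -0.35, and Scn7a came to 0.48 without the tetO-Msi2 library. Fam135b and Moxd1 passed whichever library was left out. The fibroblast markers summed to 33.0 and 43.4 scaled RPKM in untreated C1 and C4 cells and to 12.2 and 12.6 in KH2 and tetO-Msi2 cells, over 8 genes of which 0 and 0 against 2 and 4 were at 0. Of the 3 of them that could be tested, only the transcription factor Foxc1 was called in edgeR, higher by 1.88, while the collagen Col1a1 was at -0.69 (edgeR adjusted p = 0.276). Other marker lists moved as well. Of 7 neuronal markers 4 were called higher (median 1.1), and their summed level was 94.7 and 104 in C1 and C4 cells against 49.8 and 62.2 in KH2 and tetO-Msi2 cells. Of 6 astrocyte markers 3 were called higher (Gfap, Aqp4 and S100b, median 1.35), of 6 markers of oligodendrocyte precursors 2 higher and 1 lower, and of 8 neural stem markers 1 higher and 3 lower. The part of these markers in the differences of Fam135b, Moxd1 and Kirrel3 was not tested. Line, culture and any batch, which the labels do not name, cannot be told apart here. The untreated KH2 and tetO-Msi2 libraries also served the Dox test.

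Between the stages, untreated KH2 cells had 72 Moxd1 reads at E12.5 and 2916 at E13.5, and Cntnap4 went the other way, from 569 to 261. After the median of all genes (1.07) was subtracted, Moxd1 was higher at E13.5 by 4.19 on the log2 scale (3.85 to 4.55). Cntn3, with 25 and 165 reads, was higher by 1.57 (0.96 to 2.24), and Kirrel3, with 63 and 203 reads, by 0.54 (0.12 to 0.97). Cntnap4 was at -2.28 (-2.49 to -2.06) and Clstn2, with 56 and 60 reads, at -1.05 (-1.60 to -0.50). The intervals of Fam135b, Scn7a and Colec12 hold 0. These 3 above and 2 below 0 stand beside 34.3% and 36.5% of all genes. In untreated tetO-Msi1 cells the scaled level of Moxd1 was 4.49 at E12.5 and 60.1 at E13.5, and that of Cntnap4 12 and 2.53. The contrast that chose the genes used these libraries, so these levels are a description only. By 2-fold on log2(RPKM + 0.5), Kirrel3 and Moxd1 were higher and none lower, beside 49.8% and 1.76% of genes. With at least 10 reads 5 were higher and 1 lower (52.9% and 4.14%), and after rescaling 2 higher and 2 lower (10.2% and 12.0%). Stage cannot be told apart from a batch, which the labels do not name, with 1 library each in KH2 cells.

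In the floxed lines the changes of the 8 genes with 4-OHT ran from -0.84 to 0.60 in C1 cells and from -1.2 to 0.88 in C4 cells. In C1 cells, which lack CreER, Scn7a went from 99 to 133 reads, a log2 change of 0.60 (0.21 to 0.99), and Kirrel3 from 494 to 563, a change of 0.36 (0.19 to 0.54). Colec12 went from 91 to 45 reads, a change of -0.84 (-1.39 to -0.31). The intervals lay above 0 for 3 genes and below 0 for 2, against 21.0% and 22.5% of all genes. In C4 cells Cntn3 went from 124 to 275 reads, a change of 0.88 (0.57 to 1.2), and Kirrel3 from 483 to 842, a change of 0.54 (0.37 to 0.70). Colec12, with 46 and 24 reads, was at -1.2 (-1.98 to -0.46). Here 4 intervals lay above and 1 below 0, against 37.5% and 19.0% of all genes, and after the median was subtracted 3 lay above and 2 below, against 26.8% and 28.5%. Kirrel3 was higher and Colec12 lower in both lines, with or without CreER.

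**Figure D3:**
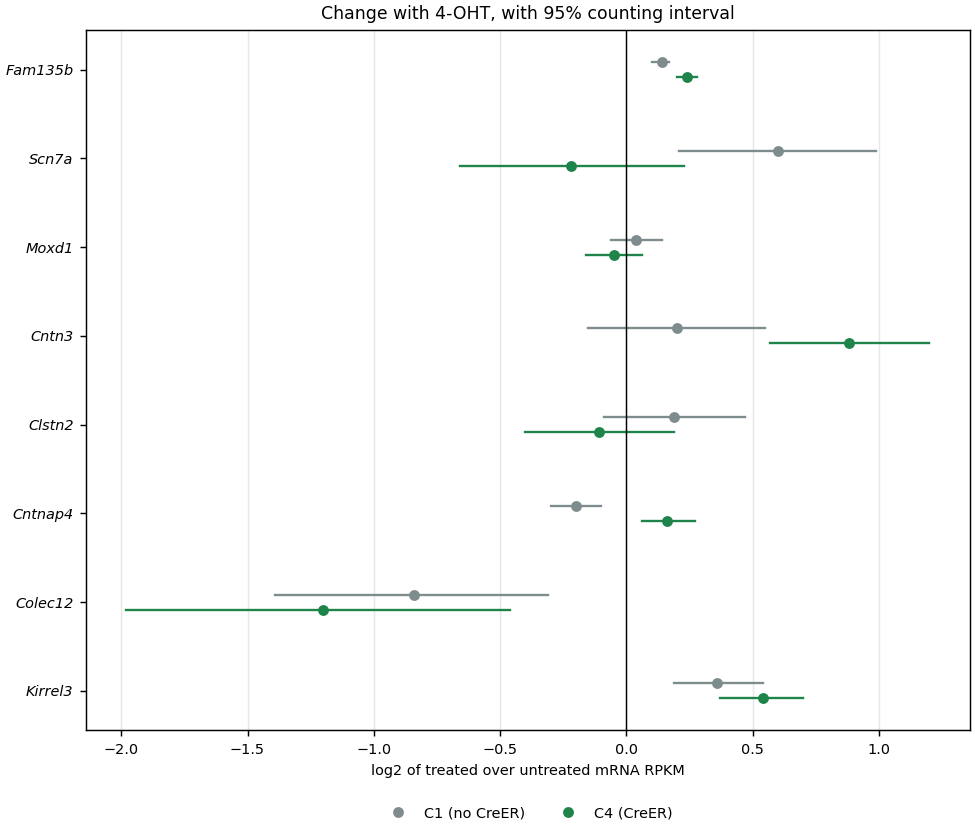
Log2 of treated over untreated mRNA RPKM (x axis) of each of the 8 genes with 4-OHT in C1 and C4 cells. Points are single pairs of libraries and lines are 95% counting intervals. Colec12 lies left of 0 in both lines (-0.84 and -1.2), Kirrel3 right of 0 in both (0.36 and 0.54), and Cntn3 is clear of 0 in C4 cells (0.88).

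The change in C4 cells less that in C1 cells differed from 0 beyond counting error for Cntn3, at 0.69 (0.23 to 1.14), for Cntnap4, at 0.36 (0.22 to 0.51), for Fam135b, at 0.10 (0.05 to 0.16), and for Scn7a, at -0.82 (-1.39 to -0.25). The median of this difference over all genes was 0.08, which leaves 0.03 for Fam135b. The share of all genes with such an interval off 0 was not counted, so nothing is read from the number of members. For Moxd1 (-0.09, interval -0.24 to 0.06), Clstn2 (-0.29, interval -0.69 to 0.10), Colec12 (-0.36, interval -1.24 to 0.51) and Kirrel3 (0.17, interval -0.07 to 0.41) the interval holds 0. An edgeR test of 4-OHT across C1 and C4 cells, with the line as a block, called 0 of the 8 genes, beside 3.14% of 11626 genes called higher and 2.36% lower. Kirrel3, at 0.42 (edgeR adjusted p = 0.10), and Colec12, at -1.02 (edgeR adjusted p = 0.1147), came nearest. An unadjusted p under 0.05 was found for 4 of the 8 in edgeR, Fam135b, Cntn3, Colec12 and Kirrel3, beside 19.6% of all genes tested, and DESeq2 also called 0 of the 6 it tested. Without the filter on low counts Kirrel3 passed (edgeR adjusted p = 0.03918). Of 28 relatives tested 3 were called higher and 1 lower. Cntnap2, a relative of Cntnap4, went from 241 to 92 reads in C1 and from 372 to 202 in C4 cells, at -1.22 in the test (SE 0.178, edgeR adjusted p = 8.252e-03), while Cntnap4 itself was at -0.06 (edgeR adjusted p = 0.8188). The binding partners Magi2 (0.45) and Ptprz1 (0.26) and the receptor Scarb1 (0.35) were called higher.

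Ribosome footprints were counted over coding exons at E12.5 in the C1, C4, KH2 and tetO-Msi1 lines. Only Fam135b, Moxd1, Cntnap4 and Kirrel3 had more than 50 footprints in any library. Fam135b had 1584 and 584 footprints in C1 cells without and with 4-OHT and 271 and 304 in C4 cells, against 0 and 4 for KH2 and 8 and 0 for tetO-Msi1 cells. Scaled to 1000000 counted footprints of the library, these were 248, 255, 145 and 181 in the floxed lines and at most 2.81 in the others, where a count of 0 allows up to 0.864 in untreated KH2 cells and 4.56 in the treated tetO-Msi1 library. The footprints of Fam135b thus divided the lines as its mRNA did. On the same scale Cntnap4 was at 55.2 and 41.1 in C1 cells, 65.4 and 32.8 in C4, 12.7 and 35.1 in KH2 cells and then 32.4 and 30.4 for tetO-Msi1. The scale matters in KH2 cells, where counted footprints were 32.1% of the reads behind the RPKM without Dox and 12.3% with it. By RPKM, Cntnap4 footprints changed there by 0.09 (-0.52 to 0.71) on 44 and 50 footprints. Colec12 had between 0 and 7 footprints in each library, and was at 0 in both KH2 libraries.

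**Figure D4:**
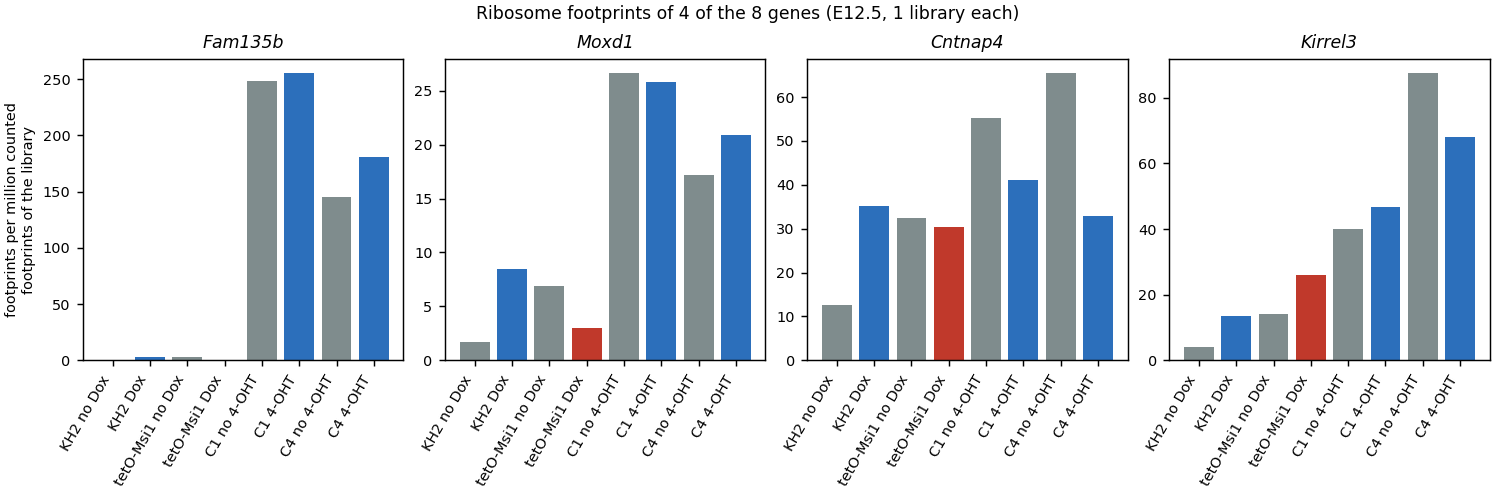
Footprints scaled to 1000000 counted footprints of the library, of Fam135b, Moxd1, Cntnap4 and Kirrel3 in the 8 Ribo-Seq libraries, 1 bar per library, with a separate scale for each gene. Fam135b reaches 145 to 255 in C1 and C4 cells and at most 2.81 in KH2 and tetO-Msi1 cells. Kirrel3 in tetO-Msi1 cells stands at 14.2 without and 25.9 with Dox on this scale, and at 0.755 and 1.0 by RPKM, a log2 change whose interval (-0.50 to 1.25) holds 0.

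In tetO-Msi1 cells with Dox, again in the contrast that chose the genes, the footprint library was the shallowest. Kirrel3 had 43 footprints without and 17 with Dox, a log2 change of RPKM of 0.41 (-0.50 to 1.25), while its mRNA changed by -2.85 on 93 and 5 reads. The footprint and mRNA intervals of Kirrel3 do not overlap. Its translational efficiency (TE, Ribo-Seq RPKM over RNA-Seq RPKM) is not compared here because the treated mRNA did not exceed 5 reads. Cntnap4 had 98 and 20 footprints, a change of -0.55 (-1.32 to 0.16), and its TE change was 0.36 (-0.38 to 1.10). Moxd1 had 21 and 2 footprints, Scn7a 14 and 1, Clstn2 13 and 3, Cntn3 9 and 0, Fam135b 8 and 0, and Colec12 0 and 1. All of their intervals that could be formed hold 0. At this depth no change of footprints was detectable for any of the 8 in tetO-Msi1 cells.

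Only Cntnap4 had more than 5 reads in all 4 libraries of tetO-Msi1 cells, 3 of the 8 in KH2, 5 in C1 and 5 in C4 cells. By a limit of 3-fold in TE with an mRNA change under 1.5-fold, none of the 8 could be called in tetO-Msi1 cells, where Cntnap4 exceeded the mRNA limit. Of the 3 in KH2, 4 in C1 and 5 in C4 cells that could be called, 0 were. Of all genes that could be called, 1.04% were higher and 0.250% lower in tetO-Msi1, 0.631% and 0.473% in KH2, 0.109% and 38.4% in C1, and 0.693% and 1.90% in C4 cells. The uneven calls of C1 cells go with a median TE change of -1.46 over all genes, so values were also read relative to the median. Relative to it, TE in C1 cells changed by 0.01 for Fam135b, 0.02 for Moxd1, -0.03 for Kirrel3, -0.11 for Cntnap4 and 0.70 for Scn7a, the last on 11 and 9 footprints. Clstn2, with 36 and 3 footprints in C1 cells, had too few for a TE value, and its footprint change relative to the median was -2.0 (-4.34 to -0.34) beside an mRNA change of 0.19. In C4 cells Cntnap4 had 122 footprints without and 55 with 4-OHT while its mRNA had 1286 and 1730 reads, and its TE change was -1.17 (-1.64 to -0.70), or -0.94 relative to the median of -0.23. Kirrel3 had 163 and 114 footprints and 483 and 842 mRNA reads, a TE change of -0.91 (-1.29 to -0.53), or -0.68 relative to the median. Before the median was subtracted these 2 were lower beyond counting error, whereas Fam135b (0.07), Moxd1 (0.32) and Clstn2 (0.83) had intervals that hold 0. The share of all genes with such a TE interval was not counted, so nothing is read from how many members had one. In KH2 cells with Dox the TE changes of Moxd1 (0.81), Cntnap4 (0.47) and Kirrel3 (0.61) had intervals that hold 0. Cntn3 had too few footprints in C4 cells for a TE value, with 17 and 4 footprints, beside an mRNA change of 0.88. Its footprint change was -1.95 (-3.98 to -0.33), or -1.8 (-3.83 to -0.19) relative to the median. Scn7a went the other way in C4 cells, from 0 to 7 footprints. The lower end of its interval was 0.67, or 0.81 relative to the median. Colec12 went from 6 to 0 footprints there, with an upper end of -0.09, or 0.05 relative to the median.

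The 8 patterns over the 13 conditions were not alike. Pearson's r of log2(scaled RPKM + 0.5) over the 28 pairs ran from -0.45 (Moxd1 and Cntnap4) to 0.80 (Scn7a and Clstn2), with a median of 0.34. It was over 0.5 in 9 pairs and below 0 in 5. The conditions share lines, so these values describe the set and are not independent observations.

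**Figure D5:**
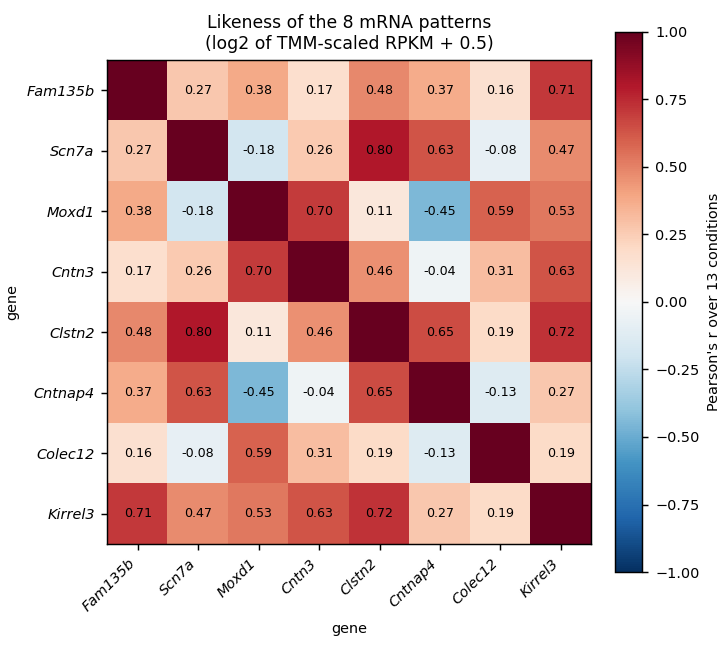
Pearson's r between the mRNA patterns of the 8 genes, from log2(TMM-scaled RPKM + 0.5) over 13 conditions, with the value in each cell and colour from -1 (blue) to 1 (red). Scn7a and Clstn2 are most alike (0.80) and Moxd1 and Cntnap4 least (-0.45).

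Among 10849 genes with a mean deposited RPKM of at least 1, the patterns most like those of single members on the deposited scale were Stac and Slc6a17 for Fam135b (r of 0.996 each), Anapc16 for Moxd1 (0.988), Qpct for Cntnap4 (0.977), Slc2a6 for Kirrel3 (0.973), Sorcs1 for Cntn3 (0.959), Fancl for Clstn2 (0.948), Lpar6 for Scn7a (0.935) and Plscr4 for Colec12 (0.913). For the mean of the 8 they were Fancl (0.986) and Tnc (0.985), the latter encoding the matrix protein tenascin-C. After TMM scaling Qpct (0.988) and Sorcs1 (0.949) were again first for Cntnap4 and Cntn3, while Tnfrsf12a (0.994) was first for Fam135b and Dtwd1 (0.92) for the mean of the 8.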

How the data were processed

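RNA-Seq and Ribo-Seq of cultured mouse cortical NSCs were read from per-library tables, and groups came from the labels. For each gene the authors deposited a read count, not normalized, and an RPKM, computed over the gene model in the same table on a number of reads constant within a library. The counted reads were 14.9% to 34.1% of that number in RNA-Seq and 7.5% to 32.1% in Ribo-Seq. The submitters' processing notes name mm9, Bowtie and TopHat, without versions. All per-sample columns were used. The 8 genes and the lists of relatives were chosen with earlier results of these data known.

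Technical replicates of untreated tetO-Msi1 cells (chi-square per degree of freedom 1.67 over 13207 genes, against 29.7 over 12705 genes for untreated KH2 and tetO-Msi2 cells) had their counts summed and RPKM averaged. Intervals are 95% counting intervals on the read counts. Tests used edgeR 4.0.16 (TMM, genes kept at 1 CPM or more in 2 or more libraries, quasi-likelihood, Benjamini-Hochberg over all genes tested, threshold 0.05) in R 4.3.3. DESeq2 1.42.0, RLE factors, no filter, no block, and leaving out each library were alternatives. On simulated data with 200 genes changed 4-fold, the edgeR tests recovered 198 of 200 for Dox with 14 false calls among 11714 genes, 200 with 5 among 11579 for 4-OHT, and 199 with 10 among 11953 for the floxed lines. Counts of 2-fold changes used log2(RPKM + 0.5) for genes whose mean RPKM reached 1, and a rule on reads (at least 10 in both libraries together, no pseudocount) was added after seeing the data, as were the TMM-scaled patterns. TE needed more than 5 reads in all 4 libraries. All 8 genes were named. A relative was named when called by a test, chosen after its values were seen, or when it changed at least 2-fold with at least 50 reads in the higher library. A relative that met this rule is not reported here. Like patterns were the 3 genes with the highest r for each member and 10 for their mean, of which the first are given. Syt10, Dsc2 and Snap25, and the markers named, were chosen after their values were seen. Sites came from the NCBIM37 genome and Ensembl annotation, read with pysam 0.24.0.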

Additional observations from a re-analysis of the deposited data

Results flagged for a closer look

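Cntnap4 mRNA moved in opposite directions with 4-OHT in the floxed lines, at 0.16 on the log2 scale in C4 cells (1286 and 1730 reads) and -0.2 in C1 cells (1898 and 1462 reads). Both counting intervals exclude 0, but each line has 1 library per condition and the difference was not tested over samples. Relative to the median of all genes the C4 value was 0.09 (-0.02 to 0.19), which holds 0.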

How the results depend on the processing

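By 2-fold on log2(RPKM + 0.5) with a mean RPKM of at least 1, only 2 to 4 of the 8 genes were high enough to be read, and the count was 1 in tetO-Msi1 cells at E12.5 (Kirrel3), 1 at E13.5 (Moxd1), 0 in KH2, tetO-Msi2, C1 and C4 cells, and 2 between stages. At 1.5-fold it was 2 in tetO-Msi1 cells at E12.5 and 1 in tetO-Msi2 cells (Cntnap4). With at least 10 reads and no pseudocount, a rule added after seeing the data, it was 5 and 7 in tetO-Msi1 cells, 2 in KH2 cells (Clstn2, Colec12), 1 in tetO-Msi2 and 1 in C4 cells (Colec12 in both), and 6 between stages. Rescaling by the median ratio gave the same counts but 4 between stages. For Dox across KH2 and tetO-Msi2 cells the 96 calls and 2 members became 13 and 0 with RLE factors, 3 and 0 with DESeq2, and 0 and 0 without the line block (86 genes at an unadjusted p under 0.05). For 4-OHT the 639 calls and 0 members became 1254 and 1 without the filter, and 0 calls without the block (1124 at an unadjusted p under 0.05). For the floxed lines, leaving out 1 library gave 4347 to 7048 calls, lowest without C4 (4347) and without C1 (4521), and 2 to 4 members. Of all tested values of the 8 genes, 114 kept their side of the threshold under the alternatives, 7 lost it, 3 gained it and 0 called values changed direction. Without the tetO-Msi2 library Scn7a and Cntn3, not called between the lines, turned to 0.48 and 0.35. Rescaling by the median ratio turned Scn7a from 0.17 to -0.90 and Clstn2 from 0.02 to -1.05 between stages, and no other log2 change turned under another scaling or pseudocount. By size, 64 values left and 160 stayed within the counting interval, mostly with pseudocounts of 0.5 and 2. No paired analysis was possible because each condition had 1 library, so replicate numbers were shared only as 1. The block in the Dox and 4-OHT tests is the line. Depth limits Fam135b, Scn7a and Colec12 in tetO-Msi1 and tetO-Msi2 cells with Dox, at 2 to 31 reads. It also limits Kirrel3, Clstn2 and Cntn3 in tetO-Msi1 cells with Dox at E12.5, at 5, 7 and 8 reads.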

Other observations

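Beside Fam135b, the levels of its neighbours on chromosome 15 were read, chosen after the values of Fam135b were seen. Khdrbs3, the nearest expressed gene on one side, stood at 166 scaled RPKM in untreated KH2, 205 in tetO-Msi2 and 175 in tetO-Msi1 cells, and at 145 in C1 and 146 in C4 cells. Trappc9 stood at 52.7, 42.3 and 47.8 in the tet-inducible lines and at 26.8 and 27.6 in C1 and C4 cells. Col22a1, the nearest gene on the other side, had 1, 1 and 6 reads in the tet-inducible lines and 45 and 48 in C1 and C4 cells, or 0.164, 0.157 and 0.603 against 1.66 and 2.23 scaled RPKM. Kcnk9 was at 0 in all 5.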
